A study of Mus musculus with 6 samples.

Results

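The 10 genes described here are widely used markers of fibroblasts and fibro-adipogenic progenitors, the connective tissue cells that share skeletal muscle with satellite cells (SCs). They were *Pdgfra*, *Thy1*, *Ly6a*, *Dcn*, *Lum*, *Dpt*, *Fn1*, *Fbn1*, *Postn* and *Gsn*. Each was taken as the row of the deposited table that carries its gene name, and all 10 names matched exactly 1 of 55416 rows. The genes were chosen by name as known markers, to measure the purity of the cultures. Mean TPM would have decided between rows of the same name, but no name repeated. Other values of these libraries were known when the set was drawn up, so the levels below are a description. RNA was sequenced from 3 WT and 3 lactoferrin knockout (*Ltf*-KO) libraries of cultured SCs, all harvested on day 4 of growth without further treatment. The *Ltf*-KO mice carry a CRISPR-Cas9 deletion of several *Ltf* exons in every tissue, made in C57/BL6N zygotes, and the WT mice lack the deletion. The labels give no age or sex, and by the general rule of the study's methods the mice were 8 to 10 weeks old. Cells from collagenase-digested hind leg muscle were sorted as Sca1-negative, CD11b-negative, CD34-positive and α7-integrin-positive. The culture plates were coated with 10% Matrigel, and the medium held 10 ng/ml basic FGF, 1% embryo extract from chick, 20% serum and antibiotics. The labels do not say whether the 3 libraries of a genotype came from separate mice, so the p-values below measure only the spread between these libraries, which may be technical.

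Fibro-adipogenic progenitors lie between muscle fibers, carry the receptor PDGFRα and the surface antigen Sca1, and make much of the collagen-rich matrix of muscle. After injury they multiply and support SCs, and they can turn into matrix-producing fibroblasts or into fat cells. Several of the genes used to mark them encode secreted matrix proteins that other mesenchymal cells, cultured myoblasts among them, can also make, while others encode surface proteins by which the cells are sorted.

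The deposited values are TPM, transcript abundances corrected for gene length and scaled to one total in all libraries. Levels of different genes can thus be compared within a library, but read depth cannot be recovered from them. The libraries resembled each other, with Pearson correlations of log2(TPM + 1) between 0.972 and 0.978 across the 12956 genes averaging 1 TPM or more (the genes tested below), and genes are not independent replicates. *Ltf* was at 0.12, 0.02 and 0.02 TPM in WT and at 0.02, 0.03 and 0 TPM in *Ltf*-KO libraries, so its RNA does not check the genotype labels. Myogenic genes were high, among them *Myod1* (748 to 816 TPM), which encodes the myogenic transcription factor MyoD, *Des* (446 to 511 TPM), which encodes the muscle intermediate filament desmin, and *Itga7* (371 to 416 TPM), which encodes the α7-integrin used for the sort. *Pax7*, the transcription factor that defines SCs, was at 36.6 to 43.3 TPM.

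The levels of the 10 marker genes differed widely. Of the 10 genes, 4 averaged 10 TPM or more, namely *Fn1* (372 TPM), *Gsn* (79.4 TPM), *Postn* (36.4 TPM) and *Fbn1* (31.2 TPM). Another 4 lay between 1 and 10 TPM, namely *Dcn* (4.26 TPM), *Thy1* (2.49 TPM), *Ly6a* (2.05 TPM) and *Pdgfra* (1.32 TPM). The remaining 2, *Lum* (0.237 TPM) and *Dpt* (0.075 TPM), lay under 1 TPM. In this order of 9 neighbouring pairs, 4 pairs had separate ranges over the libraries, and the ranges overlapped for the other 5. The separate pairs were *Fn1* above *Gsn*, *Gsn* above *Postn*, *Fbn1* above *Dcn*, and *Pdgfra* above *Lum*. *Postn* was above *Fbn1* in 3 of 6 libraries, and *Thy1* was above *Ly6a* in 3 of 6.

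The level of all 10 genes together was mostly the level of one of them. Summed TPM was 499, 474 and 561 in WT and 550.3, 644 and 451 in *Ltf*-KO libraries, which is 0.0453% to 0.0648% of a library, and *Fn1* alone held 68.5% to 71.9% of this sum. The 6 genes under 10 TPM summed to 7.29, 8.39 and 10.7 TPM in WT and to 13.1, 13.6 and 9.41 TPM in *Ltf*-KO libraries. *Ltf*-KO replicates 1 and 2 were above all WT libraries, but *Ltf*-KO replicate 3 fell within the WT range. A list of 10 satellite cell and myoblast genes summed to 1994 to 2071 TPM in a library. The *Ltf*-KO to WT ratio of the sum of all 10 was 1.07, with WT at 511 ± 44.4 TPM and *Ltf*-KO at 548 ± 96.9 TPM (SD, n = 3 each), a difference smaller than either SD. In bulk RNA, fewer cells of a type and less RNA per cell cannot be told apart.

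**Figure D1:**
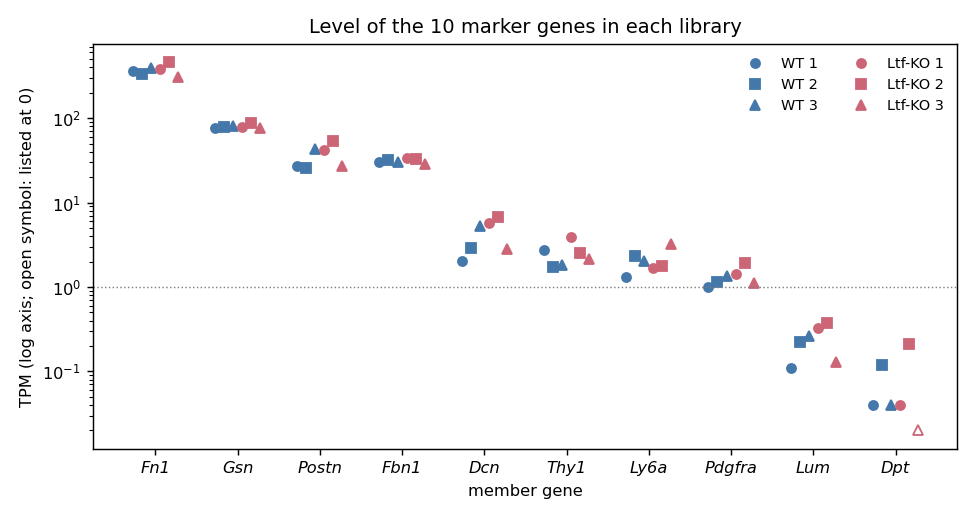
TPM of each of the 10 marker genes (horizontal axis, in order of mean level) in each of the 6 libraries, on a log axis. Blue symbols are WT and red symbols are *Ltf*-KO libraries, with replicates 1, 2 and 3 as circle, square and triangle, and the dotted line is at 1 TPM. *Fn1* lies at 309 TPM or more in all 6 libraries, while *Lum* and *Dpt* lie under 0.4 TPM, and the open triangle is the *Dpt* value listed at 0.

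Among the surface proteins, *Pdgfra* encodes a receptor for platelet-derived growth factors and is the most used single marker of fibro-adipogenic progenitors. It was at 1.00, 1.13 and 1.35 TPM in WT libraries and at 1.42, 1.90 and 1.11 TPM in *Ltf*-KO libraries. *Ltf*-KO replicates 1 and 2 were above all WT libraries, but *Ltf*-KO replicate 3 fell within the WT range, so the groups overlap. On the log2(TPM + 1) scale its difference between *Ltf*-KO and WT was 0.19 (95% confidence interval -0.23 to 0.61, limma adjusted p = 0.999). *Myod1* exceeded *Pdgfra* by 428-fold to 816-fold within a library. *Pdgfrb*, the related receptor typical of mural cells, was 3.44 to 4.89 times as high as *Pdgfra* in every library.

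Of 6 other genes for PDGF ligands and receptors, 5 were tested, and *Pdgfa* (67.02 to 79.7 TPM), *Pdgfc* (16.1 to 18.6 TPM) and *Pdgfb* (13.5 to 17.2 TPM), which all encode ligands, had the highest levels. The RNA of these 3 ligand genes was thus far above that of *Pdgfra*, while the ligand gene *Pdgfd* was under 1 TPM. None of the 5 had a limma adjusted p under 0.05. At a limma unadjusted p under 0.05, 1 was higher in *Ltf*-KO, against 2.01% of all tested genes. In 2 of the 5 the *Ltf*-KO libraries lay above all WT libraries, against 4.73% of all tested genes. These 2, named after their values were seen, were *Pdgfrb* and *Pdgfa*. *Pdgfrb* was at 3.73, 3.89 and 4.71 TPM in WT and at 6.95, 7.51 and 4.80 TPM in *Ltf*-KO libraries, with a log2 difference of 0.52 (95% confidence interval 0.13 to 0.92, limma unadjusted p = 0.0171, adjusted p = 0.999). *Pdgfa* was at 69.0, 69.6 and 67.02 TPM in WT and at 70.8, 79.7 and 72.5 TPM in *Ltf*-KO libraries.

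*Thy1* encodes CD90, a small glycoprotein held on the surface of fibroblasts and T cells by a lipid anchor. It was at 2.77, 1.71 and 1.84 TPM in WT libraries and at 3.94, 2.55 and 2.14 TPM in *Ltf*-KO libraries. WT replicate 1 was above 2 of the *Ltf*-KO libraries, so the groups overlap. The log2 difference was 0.31 (95% confidence interval -0.21 to 0.83, limma adjusted p = 0.999).

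*Ly6a* encodes Sca1, the antigen against which the cells were sorted. It was at 1.33, 2.32 and 2.01 TPM in WT libraries and at 1.66, 1.76 and 3.21 TPM in *Ltf*-KO libraries. The highest value was in *Ltf*-KO replicate 3 and the lowest in WT replicate 1, with the other libraries mixed between the genotypes. The log2 difference was 0.14 (95% confidence interval -0.42 to 0.69, limma adjusted p = 0.999), which became -0.01 when WT replicate 1 was left out and -0.08 when *Ltf*-KO replicate 3 was. The positive sort antigen *Itga7* was 130 to 281 times as high as *Ly6a*. *Cd34*, the other positive antigen, was at 5.74, 6.03 and 6.12 TPM in WT and at 6.2, 5.69 and 4.41 TPM in *Ltf*-KO libraries. *Itgam*, which encodes CD11b, was at 0.07, 0 and 0 TPM in WT and at 0.01, 0.01 and 0 TPM in *Ltf*-KO libraries. *Ptprc*, which encodes the leukocyte antigen CD45, reached at most 0.16 TPM, and *Pecam1*, which encodes the endothelial antigen CD31, ranged from 1.02 to 2.71 TPM. Antibodies to CD31 and CD45 were in the stain used for the sort, although the stated gate does not name them. Conversely, the gate names CD34 and CD11b, but the methods list no antibody to either in the stain. Thus RNA of the 2 negative antigens of the stated gate was at or near 0 for CD11b and low but present for Sca1. The gate was set on surface protein before culture, and this RNA is from day 4, so it does not measure the sort.

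*Ly6a* lies in a cluster of related genes, next to *Ly6i* and *Ly6c1* in RefSeq's GRCm38.p6 annotation, so its value is uncertain where reads match several of them. Of 6 other Ly6 genes, only *Ly6e* passed the filter of a mean of 1 TPM, at 63.8 to 77.5 TPM. *Ly6c1* (0.11 to 1.09 TPM) and *Ly6g6d* (0 to 0.45 TPM) came next. Thus *Ly6e*, a widely expressed member, was 20.2 to 57.8 times as high as *Ly6a*, and its 2 groups overlapped.

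Among the matrix genes, *Dcn* and *Lum* encode decorin and lumican, small leucine-rich proteoglycans that bind collagen fibrils and set their spacing. *Dcn* was at 2.04, 2.89 and 5.24 TPM in WT libraries and at 5.71, 6.83 and 2.82 TPM in *Ltf*-KO libraries. WT replicate 3 stood with *Ltf*-KO replicates 1 and 2, and *Ltf*-KO replicate 3 stood with WT replicates 1 and 2. The log2 difference of 0.48 was the largest among the tested marker genes over all 6 libraries, but its 95% confidence interval ran from -0.36 to 1.33 (limma adjusted p = 0.999). It was below that of *Thy1* without WT replicate 1 (0.25 against 0.46) and without *Ltf*-KO replicate 2 (0.27 against 0.36).

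*Lum* was at 0.11, 0.22 and 0.26 TPM in WT libraries and at 0.33, 0.37 and 0.13 TPM in *Ltf*-KO libraries. The 6 libraries took the same order as for *Dcn*, at a level 13.1 to 21.7 times lower. *Lum* was under 1 TPM and therefore not tested. *Dcn* and *Lum* are neighbours on chromosome 10 in RefSeq's GRCm38.p6 annotation, and the next gene after *Lum* is *Kera*, which encodes keratocan, a proteoglycan of the cornea. *Kera* was listed at 0 TPM in all 6 libraries, and so was *Epyc*, a cartilage proteoglycan gene.

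Of a list of 10 other small leucine-rich proteoglycan genes, 2 passed the filter, and these were *Bgn* (biglycan) and *Ogn* (osteoglycin, 2.33 to 4.21 TPM). *Bgn* was at 170, 188 and 188 TPM in WT libraries and at 198, 236 and 159 TPM in *Ltf*-KO libraries, which is 34.6 to 83.6 times the level of *Dcn* in the same library. *Podn*, the third by level, reached at most 0.62 TPM. Neither of the 2 tested genes had an unadjusted p under 0.05 by limma, against 3.78% of all tested genes. The decorin family was thus represented mainly by biglycan in these cultures.

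*Dpt* encodes dermatopontin, a small matrix protein that binds decorin. It was at 0.04, 0.12 and 0.04 TPM in WT libraries and at 0.04, 0.21 and 0 TPM in *Ltf*-KO libraries. It was the lowest of the 10 genes in every library and was not tested.

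*Fn1* encodes fibronectin, a large glycoprotein that links cells to collagen through integrins and is also made by activated SCs. It was at 359, 330.3 and 395 TPM in WT libraries and at 384, 458 and 309 TPM in *Ltf*-KO libraries. *Ltf*-KO replicate 2 was the highest and *Ltf*-KO replicate 3 the lowest of all 6, so the *Ltf*-KO libraries enclosed the WT range. The log2 difference was 0.07 (95% confidence interval -0.27 to 0.41, limma adjusted p = 0.999), and -0.07 without *Ltf*-KO replicate 2. *Fn1* was 241 to 359 times as high as *Pdgfra* and 67.0 to 176 times as high as *Dcn* within a library.

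*Fbn1* encodes fibrillin-1, the backbone of the microfibrils that carry elastin and bind latent TGF-β. It was at 30.2, 32.1 and 29.8 TPM in WT libraries and at 33.5, 32.8 and 28.7 TPM in *Ltf*-KO libraries. It was among the steadiest of the 10 genes, with a highest value 1.17 times the lowest and a log2 difference of 0.04 (95% confidence interval -0.13 to 0.21, limma adjusted p = 0.999). Its relative *Fbn2* was at most 0.54 TPM, 55.2 to 99.03 times lower than *Fbn1*.

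*Postn* encodes periostin, a secreted protein of healing and fibrosing tissue that binds integrins and collagen. It was at 27.2, 25.9 and 43.6 TPM in WT libraries and at 41.7, 53.0 and 27.0 TPM in *Ltf*-KO libraries. As for *Dcn*, WT replicate 3 and *Ltf*-KO replicates 1 and 2 were high, and the other 3 libraries lay together between 25.9 and 27.2 TPM. The log2 difference was 0.31 (95% confidence interval -0.38 to 1.00, limma adjusted p = 0.999).

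*Postn*, *Pdgfra* and *Gsn* had their highest values in the same 3 libraries and have promoters in RefSeq's tables (GRCm38.p6). The 250 bases before the start are shown for the only *Pdgfra* window and for the *Postn* window that holds a TATAAA box, but not for the 3 windows of *Gsn*, a gene that varied little. They run 5′ to 3′ on the plus strand, with TATAAA in capitals. The *Postn* window, 1 of 2 for this gene in the table, is chr3:54360857-54361106 and the *Pdgfra* window is chr5:75152001-75152250.
Postn: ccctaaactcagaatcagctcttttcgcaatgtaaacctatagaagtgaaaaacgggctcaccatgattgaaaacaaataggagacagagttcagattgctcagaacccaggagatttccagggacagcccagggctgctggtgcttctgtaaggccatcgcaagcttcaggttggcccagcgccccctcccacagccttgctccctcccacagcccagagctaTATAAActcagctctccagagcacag
Pdgfra: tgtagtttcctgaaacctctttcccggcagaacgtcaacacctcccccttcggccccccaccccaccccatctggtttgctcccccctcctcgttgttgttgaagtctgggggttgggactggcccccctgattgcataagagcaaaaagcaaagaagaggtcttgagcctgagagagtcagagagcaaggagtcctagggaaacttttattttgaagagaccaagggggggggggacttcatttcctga
The TATAAA letters of *Postn* begin 26 bases before the start, and no TATAAA is in the *Pdgfra* window on either strand. Promoters were found for 5 of the 10 genes, with 8 windows in all, of which 1 held TATAAA against 12.4% of the 32851 windows of the table. CAGCTG, a form of the E-box bound by myogenic factors, was in 3 of the 8 windows, those of *Dpt* and 2 starts of *Gsn*, against 13.0% of all windows, and in neither of the sequences shown. Both motifs were searched on both strands, and they do not overlap each other in sequence. The letters say nothing about which factors bind there. The files were made on GRCm39, so these coordinates were not joined to the expression values.

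*Gsn* encodes gelsolin, a calcium-dependent protein that cuts and caps actin filaments and works both inside cells and in plasma. It was at 75.7, 77.6 and 80.9 TPM in WT libraries and at 78.1, 87.5 and 76.9 TPM in *Ltf*-KO libraries. The groups overlap, and the highest value was 1.16 times the lowest. The log2 difference was 0.05 (95% confidence interval -0.10 to 0.19, limma adjusted p = 0.999), and -0.01 without *Ltf*-KO replicate 2.

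Comparing *Ltf*-KO with WT, 0 of the 8 tested marker genes had a limma adjusted p under 0.05, and so did 0 of all 12956 tested genes, a share of 0%. At an unadjusted p under 0.05 the counts were 0 of 8 and 490 of 12956 (3.78%), and the smallest unadjusted p among the 8 was 0.202, for *Thy1* (limma). None of the 10 genes had *Ltf*-KO and WT libraries that did not overlap, whereas 8.46% of all tested genes did. By direction, 2.01% of all tested genes were higher and 1.78% lower in *Ltf*-KO at an unadjusted p under 0.05, and 4.73% lay wholly above and 3.73% wholly below WT. All 8 differences were above 0, as were 55.7% of all tested genes, with a median log2 difference of 0.16 beside 0.01 over all genes tested. The filter at 1 TPM kept 8 of the 10 genes, so these counts leave out *Lum* and *Dpt*. The intervals are wide for the variable genes and narrow for the steady ones. For *Dcn* the interval allows a difference above 1 on the log2 scale, while for *Fbn1* and *Gsn* it ends at 0.21 and 0.19.

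**Figure D2:**
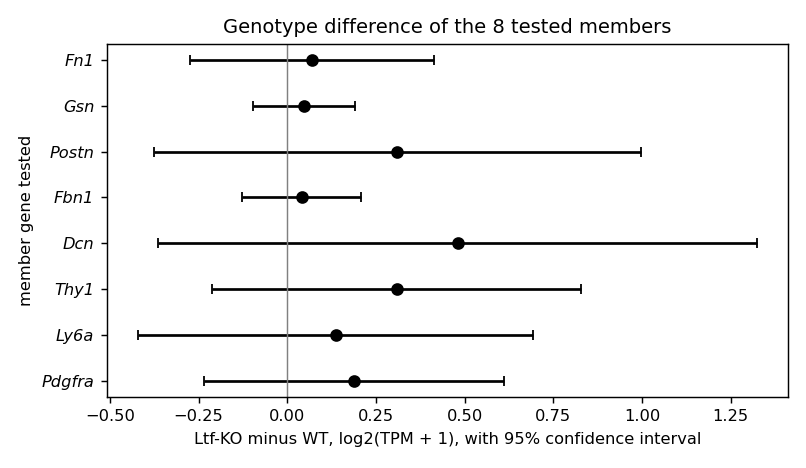
Difference between *Ltf*-KO and WT on the log2(TPM + 1) scale (horizontal axis) for the 8 marker genes averaging 1 TPM or more. Points are limma estimates from 3 libraries per genotype, and bars are 95% confidence intervals. All 8 points lie right of 0 and all 8 intervals include 0, with *Dcn* the widest, from -0.36 to 1.33.

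The libraries differed in these genes in an order that crossed the genotypes. The same 3 libraries, WT replicate 3 and *Ltf*-KO replicates 1 and 2, held the 3 highest values for 6 of the 10 genes, namely *Pdgfra*, *Dcn*, *Lum*, *Fn1*, *Postn* and *Gsn*. Of all tested genes, 9.22% had their 3 highest values in these libraries. These 3 libraries were picked out with the values in view. *Ltf*-KO replicate 2 was highest for 7 of the 10 genes and for 21.3% of all tested genes. WT replicate 1 was lowest for 5 of the 10, but the share of all tested genes lowest there was not computed. *Thy1*, *Ly6a*, *Dpt* and *Fbn1* followed other orders.

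The size of this variation differed between the genes. The range over the 6 libraries on the log2(TPM + 1) scale was 1.00 for *Postn*, larger than for 97.8% of the 6681 tested genes averaging 10 to 100 TPM, whose median range was 0.23. For *Fn1* the range was 0.57, larger than for 95.9% of the 1391 genes at 100 TPM or more, whose median was 0.14. For *Dcn* it was 1.37, larger than for 91.0% of the 4884 genes from 1 to 10 TPM, whose median was 0.46. *Fbn1* and *Gsn*, at 0.22 and 0.21, lay just under the median of genes at their level, and *Pdgfra*, at 0.54, exceeded 59.1% of genes at its level.

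**Figure D3:**
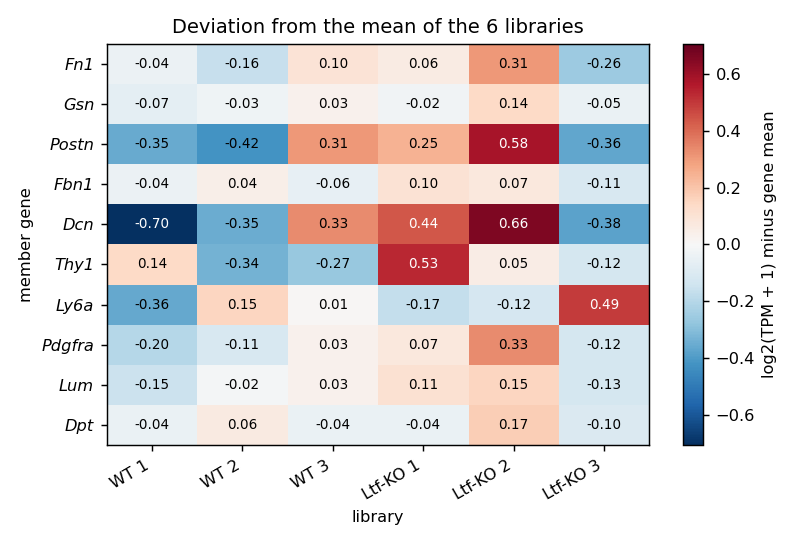
Deviation of each marker gene (rows, in order of mean level) from its mean over the 6 libraries (columns), on the log2(TPM + 1) scale, with red above and blue below the mean. *Dcn* ranges from -0.705 in WT replicate 1 to 0.66 in *Ltf*-KO replicate 2, *Postn* is above its mean in WT replicate 3 and *Ltf*-KO replicates 1 and 2, and *Gsn* and *Fbn1* stay pale throughout.

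The summed level of endothelial markers was high in the same libraries as these genes. The 6 endothelial genes, *Cdh5*, *Emcn*, *Vwf*, *Pecam1*, *Kdr* and *Tek*, summed to 9.96, 7.54 and 17.9 TPM in WT and to 13.5, 15.5 and 7.45 TPM in *Ltf*-KO libraries. The sum was highest in WT replicate 3 and *Ltf*-KO replicates 1 and 2, the 3 libraries with the highest *Dcn* and *Postn*. Of the 6 genes, 4 (*Cdh5*, *Emcn*, *Pecam1* and *Tek*) had their 3 highest values in these libraries, against 9.22% of all tested genes. These libraries were picked out with the values in view. Of the other lists, only the interstitial matrix list had its 3 highest sums there. *Kdr* was lowest in *Ltf*-KO replicate 1, at 1.31 TPM, and *Vwf* was higher in WT replicate 1 (2.60 TPM) than in *Ltf*-KO replicates 1 and 2 (2.03 and 2.19 TPM). No gene of the list was at 0 in any library, and of the defining ones *Cdh5* ranged from 1.79 to 4.97 TPM, *Emcn* from 0.82 to 4.52 TPM and *Vwf* from 1.77 to 3.68 TPM. Their part in the order of *Dcn* and *Postn* was not tested. None of the 5 tested genes of the list had an unadjusted p under 0.05 by limma, against 3.78% of all tested genes.

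Muscle differentiation genes took another order. A list of 8, led by *Mylpf* (822 to 1396 TPM), *Acta1* (844 to 1243 TPM) and *Tnnt2* (339.6 to 419.6 TPM), summed to 2976, 3787 and 2847 TPM in WT and to 3261, 2810 and 4399 TPM in *Ltf*-KO libraries. *Ltf*-KO replicate 3 had the highest sum and *Ltf*-KO replicate 2 the lowest, which is the reverse of their places for the summed marker genes, *Ltf*-KO replicate 2 being highest and *Ltf*-KO replicate 3 lowest there. The satellite cell and myoblast list varied less, from 1994 TPM in WT replicate 3 to 2071 TPM in *Ltf*-KO replicate 3. In these 2 lists, 0 of 18 genes had an unadjusted p under 0.05 by limma, against 3.78% of all tested genes. In 1 of the 18, *Msc*, the *Ltf*-KO libraries lay below all WT libraries, as for 3.73% of all tested genes. The part of differentiation in the order of the marker genes was not tested.

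**Figure D4:**
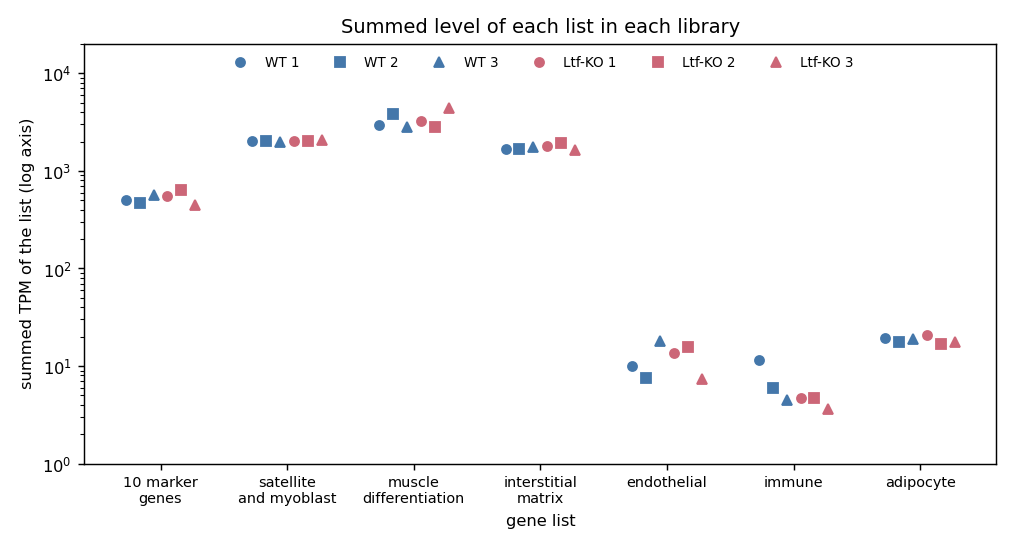
Summed TPM of the 10 marker genes and of 6 other gene lists (horizontal axis) in each of the 6 libraries, on a log axis, with symbols as in the plot of single genes. The satellite cell list lies between 1994 and 2071 TPM, while the endothelial, immune and adipocyte lists lie between 3.59 and 20.7 TPM.

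Further genes of the same cell types were low with few exceptions. Of 18 other genes found in fibro-adipogenic progenitors, 9 had a mean under 1 TPM, among them *Pi16* and *Dpp4*, which mark a progenitor state, and *Scara5*. The highest was *Serpinf1*, which encodes the secreted factor PEDF, at 725, 662 and 575 TPM in WT and at 678, 713 and 700.0 TPM in *Ltf*-KO libraries. *Cd55* (5.01 to 6.74 TPM), a complement inhibitor gene, and *Smoc2* (2.10 to 5.36 TPM), a matricellular protein gene, came next. The list, mostly *Serpinf1*, summed to 743.9, 681.1 and 597.6 TPM in WT and to 703.7, 739.5 and 719.5 TPM in *Ltf*-KO libraries. Its highest sums were in WT replicate 1 and *Ltf*-KO replicates 2 and 3, and its lowest was in WT replicate 3, unlike the marker genes. Of the 9 genes tested, 0 had an adjusted p under 0.05 by limma. A difference above 0 was seen in 8 of the 9, against 55.7% of all tested genes. At a limma unadjusted p under 0.05, 1 was higher in *Ltf*-KO, against 2.01% of all tested genes. That one was *Mfap5*, which encodes a microfibril protein, named after its values were seen. It was at 1.24, 1.53 and 2.24 TPM in WT and at 3.78, 3.24 and 2.66 TPM in *Ltf*-KO libraries, with a log2 difference of 0.67 (95% confidence interval 0.23 to 1.11, limma unadjusted p = 0.00884, adjusted p = 0.999). It was higher in all 3 *Ltf*-KO libraries than in any WT library, as were 4.73% of all tested genes.

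Of 18 genes of the interstitial matrix, 16 were tested, and the highest were *Sparc* (905 to 1010 TPM), a collagen-binding protein gene, *Col5a2* (246 to 293 TPM), a fibrillar collagen gene, and *Tnc* (175 to 240.2 TPM), which encodes tenascin-C. The list summed to 1695, 1665 and 1772 TPM in WT and to 1810, 1933 and 1642 TPM in *Ltf*-KO libraries, with the same 3 highest libraries as the marker genes. The sums of the further fibro-adipogenic, proteoglycan and PDGF lists had other sets of 3 highest libraries. None of the 16 had an adjusted p under 0.05 by limma. At a limma unadjusted p under 0.05, 1 of the 16 was higher in *Ltf*-KO, against 2.01% of all tested genes. This was *Loxl1*, which encodes a collagen and elastin cross-linking enzyme, named after its values were seen. It was at 9.63, 8.53 and 8.86 TPM in WT and at 11.8, 10.6 and 9.92 TPM in *Ltf*-KO libraries, with a log2 difference of 0.23 (95% confidence interval 0.03 to 0.44, limma unadjusted p = 0.0297, adjusted p = 0.999). All *Ltf*-KO libraries lay above all WT libraries for this gene, as for 4.73% of all tested genes.

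Fat cell genes were scarce. Of 8 adipocyte genes, 4 had a mean under 1 TPM, and *Cfd* and *Cidec* were listed at 0 in all libraries. *Adipoq*, which encodes adiponectin, was at 0 in all WT libraries and at 0.41, 0.06 and 0 TPM in *Ltf*-KO libraries. The highest were *Lpl* (8.49 to 11.6 TPM), a lipoprotein lipase gene that muscle also uses, *Pparg* (4.53 to 5.85 TPM) and *Cebpa* (1.16 to 1.69 TPM), both adipogenic transcription factor genes. The sum was 17.4 to 19.6 TPM in WT and 16.7 to 20.7 TPM in *Ltf*-KO libraries.

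Of 6 immune genes, *Cd68* (3.12 to 3.98 TPM), *Lyz2* (0.38 to 7.22 TPM) and *Csf1r* (0.05 to 0.39 TPM) were highest, and 4 had a mean under 1 TPM. *Lyz2*, a macrophage and neutrophil lysozyme gene, was highest in WT replicate 1. The immune sum was 11.5, 6.01 and 4.46 TPM in WT and 4.67, 4.69 and 3.59 TPM in *Ltf*-KO libraries. Of 4 tenocyte genes, *Scx*, a transcription factor gene of tendon, was at 72.3 to 89.5 TPM, *Mkx* at 2.25 to 8.81 TPM and *Thbs4* at 0.55 to 1.73 TPM. Of 8 smooth muscle and pericyte genes, *Acta2* (409 to 593 TPM), *Tagln* (59.5 to 83.8 TPM) and *Cspg4* (30.8 to 41.1 TPM) were highest, while *Rgs5* reached at most 0.46 TPM and *Kcnj8* 0.14 TPM, both of which are pericyte genes. The tested genes in these 3 lists were 2 immune, 3 tenocyte and 5 smooth muscle and pericyte genes. Of these, 0 had an adjusted p under 0.05 by limma. At a limma unadjusted p under 0.05, 1 of them, *Tagln*, was higher in *Ltf*-KO, against 2.01% of all tested genes. Among these tested genes, the *Ltf*-KO libraries lay above all WT libraries for *Tagln* and below all of them for *Cd68*. Of all tested genes, 4.73% lay wholly above and 3.73% wholly below WT.

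In the annotation of the deposited table, 7 of the 10 marker genes carry the term extracellular space, which 4.24% of the 12347 annotated tested genes carry. The term collagen-containing extracellular matrix is shared by 6 of them, *Dcn*, *Lum*, *Dpt*, *Fn1*, *Fbn1* and *Postn*, against 1.21% of annotated tested genes. The term integrin binding is shared by *Thy1*, *Fn1* and *Fbn1*, against 0.567% of annotated tested genes. Cell adhesion is shared by *Dpt*, *Fn1* and *Postn* (1.34%), and heparin binding by *Fn1*, *Fbn1* and *Postn* (0.551%). The marker gene counts include *Lum* and *Dpt*, which were not tested. The genes were chosen by name as known markers, several of them for matrix proteins. The shared terms thus describe that choice and are not a result of these libraries.

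The 5 tested genes whose log2(TPM + 1) followed the summed log2(TPM + 1) of the 10 marker genes most closely were *Gas8*, *Rmdn2*, *Dgkd*, *Fbln5* and Gm6654, with Pearson r from 0.987 to 0.991 over 6 libraries. They were picked for their high r out of all tested genes and carry no test. *Fbln5*, which encodes fibulin-5, a protein of elastic fibers, was at 3.92, 4.25 and 4.97 TPM in WT and at 5.17, 6.13 and 4.34 TPM in *Ltf*-KO libraries. *Gas8*, which encodes a protein of the motile cilium, was at 25.6 to 28.2 TPM, so its levels varied little.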

How the data were processed

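RNA was sequenced from 6 libraries of cultured SCs, and genotype and replicate were taken from the sample titles. The authors deposited TPM values with 2 decimals for 55416 genes, and each library sums to between 993650 and 994356. Per the labels the genome build was GRCm39. The aligner, counting tool and annotation release are not given in the sources used here, and the labels say only that a manufacturer's protocol was followed for normalization. TPM keeps no depth, so precision was judged from the replicates, and count models were not used.

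*Ltf*-KO was compared with WT by limma 3.58.1 (R 4.3.3; lmFit, eBayes with a trend of variance on mean) on log2(TPM + 1), a pseudocount of 1, for the 12956 genes averaging 1 TPM or more. This scale understates changes of low genes. Tests were two-sided with Benjamini-Hochberg adjustment over all genes tested, and the threshold was 0.05. The fit was tested on simulated data. Sums over gene lists are values without a test. The marker genes and the 13 lists (satellite cell and myoblast, muscle differentiation, further fibro-adipogenic, interstitial matrix, small leucine-rich proteoglycan, PDGF, adipocyte, Ly6, smooth muscle and pericyte, endothelial, immune, tenocyte, sort antigens) were chosen with earlier results of these data known. By rule, the text names all 10 marker genes, the 3 highest genes of each list, the sort antigens, *Ltf*, and the 5 genes closest in pattern. One further list is not reported here. Other genes serve as examples or were named after their values were seen. Alternatives were a pseudocount of 0.1, no filter, a filter at 10 TPM, quantile normalization, median-of-ratios scaling, the replicate number as a block, and each library left out in turn.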

Additional observations from a re-analysis of the deposited data

How the results depend on the processing

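No marker gene had an adjusted p under 0.05 by limma under any alternative run. Across all genes, 0 passed this threshold in each alternative that kept all libraries. Leaving out one library gave 0 to 6 such genes, with 6 without WT replicate 2, 5 without *Ltf*-KO replicate 1, 4 without *Ltf*-KO replicate 3, 2 without *Ltf*-KO replicate 2, 1 without WT replicate 3 and 0 without WT replicate 1. Genes at an unadjusted p under 0.05 numbered 490, of which 230 had lower values in *Ltf*-KO. Dropping the filter raised this to 890 and a filter at 10 TPM reduced it to 281, as other numbers of genes entered the fit, and leaving out one library gave 456 to 611. Of these genes, 305 of 508 were lower under quantile normalization and 280 of 502 under median-of-ratios scaling.

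The differences of *Pdgfra*, *Thy1*, *Dcn* and *Postn* stayed above 0 in every alternative run, but moved by over 1.5 times when 1 library was left out. *Pdgfra* ranged from 0.0683 (without *Ltf*-KO replicate 2) to 0.298 (without *Ltf*-KO replicate 3), *Thy1* from 0.12 (without *Ltf*-KO replicate 1) to 0.456 (without WT replicate 1), *Dcn* from 0.249 (without WT replicate 1) to 0.789 (without *Ltf*-KO replicate 3) and *Postn* from 0.0967 (without *Ltf*-KO replicate 2) to 0.571 (without *Ltf*-KO replicate 3). Those of 4 marker genes changed sign when 1 library was left out. *Ly6a* ranged from -0.0757 (without *Ltf*-KO replicate 3) to 0.256, with -0.0105 without WT replicate 1. *Fn1* ranged from -0.0667 (without *Ltf*-KO replicate 2) to 0.217, *Gsn* from -0.0101 (without *Ltf*-KO replicate 2) to 0.0821, and *Fbn1* from -0.00039 (without *Ltf*-KO replicate 1) to 0.107. The cause was not tested. The median log2 difference of the tested marker genes was 0.16. It ranged from 0.0825 to 0.257 with each library left out in turn, and was 0.246 at a pseudocount of 0.1, 0.113 for all 10 genes unfiltered and 0.0587 for the 4 genes above a 10 TPM filter. The *Ltf*-KO to WT ratio of the summed marker genes was 1.07, and 0.979 without *Ltf*-KO replicate 2, 1.17 without *Ltf*-KO replicate 3, 1.10 without *Fn1* and 1.13 for the geometric mean.

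To check the pairing, the deviations of equally numbered WT and *Ltf*-KO libraries from their group means were correlated over genes, which gave r of -0.0413, -0.0582 and -0.0875. Equally numbered libraries thus showed no shared deviation, but this check cannot tell whether they were prepared together. In the fit with a replicate block, limma called 0 genes at an adjusted p under 0.05 and 380 at an unadjusted p under 0.05, and the median of the tested marker genes was 0.16. Read depth behind *Lum*, *Dpt* and the other low values is unknown, so differences under 1 TPM cannot be judged.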
